A study of Mus musculus with 10 samples.

Results

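The core circadian clock genes were described in white fat of the female gonadal depot, which lies along the uterus and ovaries. The members were chosen by gene symbol: Arntl, Clock, Per1, Per2, Per3, Cry1, Cry2, Nr1d1, Nr1d2 and Dbp. All 10 were found among the 40503 genes of the deposited table, and all 10 passed the filter on low values. RNA came from female C57BL/6 mice aged 12 weeks, 5 labelled Med19 KO and 5 labelled WT. The KO mice carried an inducible, adipose-specific knockout of Med19, a subunit of the Mediator complex. They received tamoxifen at 100 mg/kg for 5 days, and tissue was taken 14 days later. The sources used here do not give whether the control mice received tamoxifen, which promoter drove the recombinase, or the hour of tissue collection. Each library is named by its group and the number in its title. The labels do not state that the numbers mark separate animals, so p-values measure the spread between these libraries.

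The mammalian clock is a loop of transcription and feedback that runs in nearly every cell, adipocytes included. ARNTL (BMAL1) and CLOCK pair and switch on the Per, Cry and Nr1d genes and Dbp through E-box sequences. PER and CRY proteins then block that pair, and the nuclear receptors encoded by Nr1d1 (REV-ERB alpha) and Nr1d2 (REV-ERB beta) repress Arntl. The RNA levels of most of these genes therefore move with the hour of the day, and Arntl peaks nearly opposite to Nr1d1, Dbp and the Per genes.

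The 250 bases before the start of transcription were searched for clock motifs, since several members varied together between libraries. RefSeq (GRCm38.p6) entries matched 9 members with 13 start sites; Per2 had no entry. The E-box CACGTG was found in 2 member windows, those of Per1 and Cry1, and in 6.02% of all 32851 windows. The E′-box CACGTT, read on either strand, was found at Cry1, Cry2 and Nr1d1 and in 3.85% of all windows. The D-box TTATGTAA, the motif bound by DBP, was searched on both strands and was found only at Per3 among the members and in 0.819% of all windows. The receptor core AGGTCA, on either strand, was found in 3 of 13 member windows (Clock, Per1 and Nr1d2) and in 14% of all windows. Clock and Per1 have other start sites, whose windows held none of these motifs. Neither Arntl nor Dbp had a match to any of them in these windows. Sequence further upstream or past the start was not searched, so motifs elsewhere in these genes would be missed. No 2 of these motifs overlapped in the member windows. The sequences below run 5′ to 3′ along the gene's strand and end at the base before the start, with motif letters in capitals. They show the E-box and E′-box of genes that were high in different libraries (Cry1 and Nr1d1), the E-box of Per1 with its receptor core (TGACCT, the other strand of AGGTCA), and the paired D-boxes of Per3.
Cry1, chr10:85185055-85185204, minus strand: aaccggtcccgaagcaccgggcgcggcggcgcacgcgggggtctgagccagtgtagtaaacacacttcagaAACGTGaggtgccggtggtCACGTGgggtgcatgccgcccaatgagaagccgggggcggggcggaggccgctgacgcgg
Nr1d1, chr11:98775378-98775527, minus strand: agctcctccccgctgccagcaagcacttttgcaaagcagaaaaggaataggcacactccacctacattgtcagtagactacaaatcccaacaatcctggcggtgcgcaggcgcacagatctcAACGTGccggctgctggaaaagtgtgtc
Per1, chr11:69098699-69098948, plus strand: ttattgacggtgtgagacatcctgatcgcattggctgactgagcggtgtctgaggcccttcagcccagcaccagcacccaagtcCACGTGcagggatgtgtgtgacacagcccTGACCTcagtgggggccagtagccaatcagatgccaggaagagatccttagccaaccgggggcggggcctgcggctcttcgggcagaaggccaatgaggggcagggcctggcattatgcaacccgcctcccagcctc
Per3, chr4:151044666-151044915, minus strand: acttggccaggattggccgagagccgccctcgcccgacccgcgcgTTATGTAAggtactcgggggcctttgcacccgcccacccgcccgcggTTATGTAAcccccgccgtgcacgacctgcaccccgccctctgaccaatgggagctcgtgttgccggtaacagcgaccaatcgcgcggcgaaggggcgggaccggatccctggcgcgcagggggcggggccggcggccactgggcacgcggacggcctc
In Cry1 the E′-box began 79 bases and the E-box 60 bases before the start. In Nr1d1 the E′-box began 28 bases before it, and in Per3 the D-boxes began 205 and 158 bases before it. A match is a description of letters and not a bound site.

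Levels are RPKM, reads scaled by gene length and library size, and the whole reads behind them numbered 14442539 to 20180968 per library. The members were counted with 91 reads (Cry1) to 3217 reads (Per3) per library. Med19, the targeted gene, was at 7.99, 5.58, 6.83, 6.84 and 6.74 RPKM (KO 1, 4, 7, 8 and 17) and at 7.58, 7.64, 6.11, 6.55 and 5.62 RPKM (WT 2, 9, 19, 86 and 89). It was not lower in the KO libraries, with means of 6.79 ± 0.85 RPKM in KO and 6.70 ± 0.89 RPKM in WT (SD, n = 5 each; exact permutation p = 0.881, 2-sided). KO and WT below stand for the libraries so labelled, and which exons were deleted is not stated. The 6 adipocyte markers summed to 534 to 807 RPKM in the KO libraries and 1580 to 2277 RPKM in WT, and 5 of them (all but Lep) were lower by limma at an adjusted p under 0.05. The 4 neutrophil and monocyte markers summed to 422 to 772 RPKM in KO and 173 to 342 RPKM in WT, and 2 were higher. Kdr was the 1 of 4 endothelial markers called, lower in KO. In the other 7 marker lists limma called 0 of 23 tested genes (6 at an unadjusted p under 0.05, and 1 by voom, Dcn of fibroblasts). The 5 ovary and uterus markers summed to 18.2 to 32.1 RPKM in KO and 15.1 to 19.1 RPKM in WT. Of these, Wnt7a was at 0 in 6 libraries, and Amh stayed at or under 0.665 RPKM. Star was at 9.89 to 16.2 (KO) and 10.5 to 12.8 RPKM (WT), and Inha at 1.32 to 1.96 and 1.27 to 2.16 RPKM. Ltf was at 5.11 to 17.6 (KO) and 2.67 to 6.44 RPKM (WT) (limma adjusted p = 0.123). The brown fat marker Ucp1 ranged from 0 to 13.4 RPKM. In bulk tissue, fewer cells of a type and less RNA per cell cannot be told apart.

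Across all 10 libraries Nr1d1 had the highest mean level of the members, 34.2 ± 12.1 RPKM (SD, n = 10), followed by Per1 at 24.8 ± 4.8 RPKM. Dbp (19.2 RPKM), Nr1d2 (18.5), Per3 (14.8), Per2 (14.1) and Clock (13.7) came next. Cry2 was at 8.72 RPKM, and Arntl (4.10) and Cry1 (4.00) were lowest. Only 3 neighbours in this order differed by more than the larger SD of the pair: Per1 above Dbp, Clock above Cry2, and Cry2 above Arntl. The other 6 neighbouring pairs did not, among them Nr1d1 and Per1, where Nr1d1 was higher in 6 of 10 libraries.

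**Figure D1:**
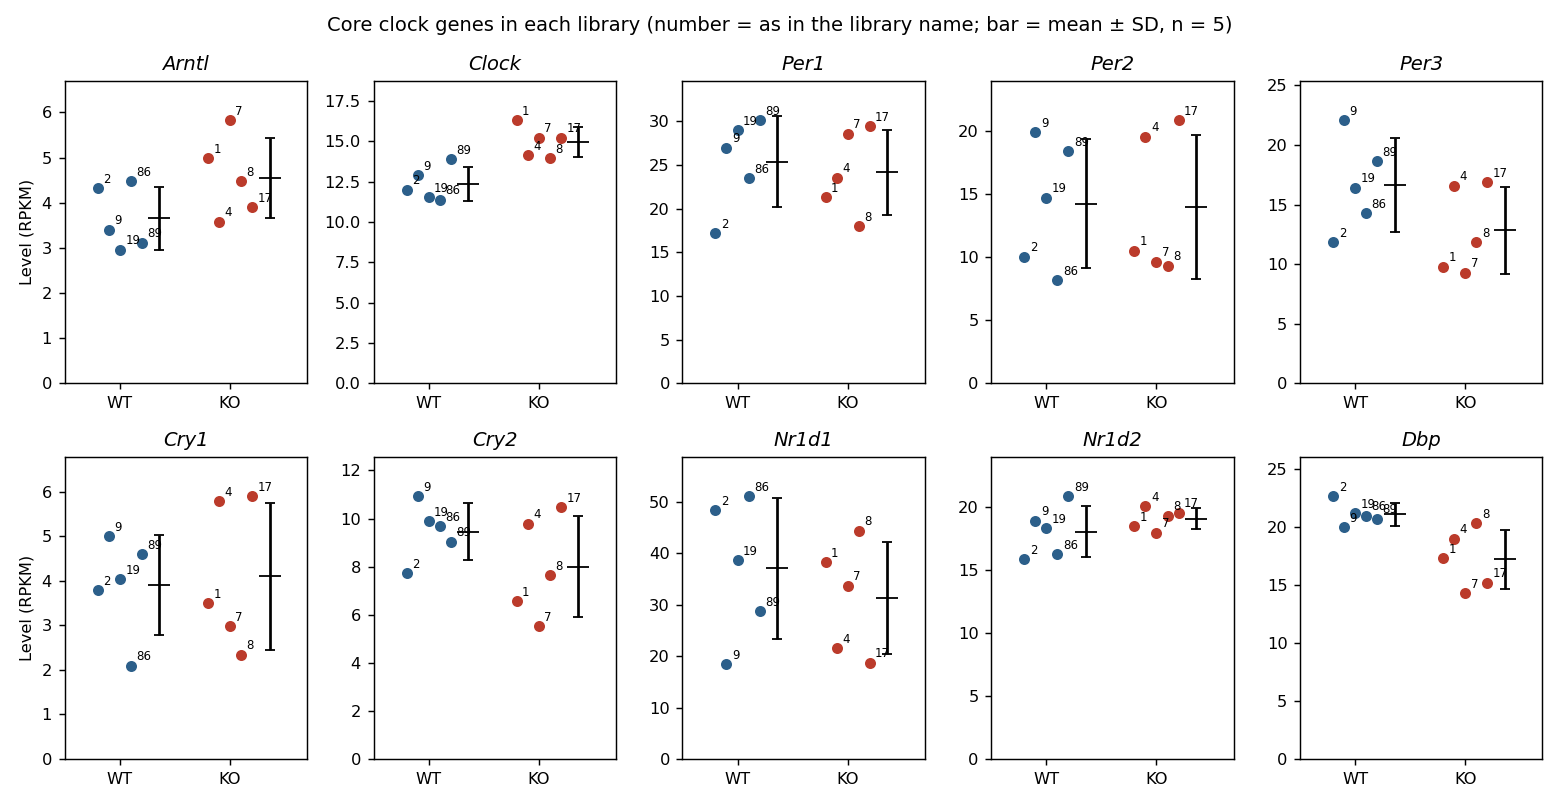
Level of each clock gene (RPKM, linear axis from 0) in the 5 WT (blue) and 5 KO (red) libraries, each point 1 library with its number, and the bar the mean ± SD. Clock is the gene whose groups do not overlap (KO 13.9 to 16.3, WT 11.4 to 13.9 RPKM), while Per2, Cry1 and Nr1d1 spread widely within both groups.

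Clock was the 1 member that passed the test between the groups, and it was higher in the KO libraries. The comparison used log2(RPKM + 0.5) in limma over 17038 tested genes, with Benjamini-Hochberg adjustment over all of them. By that rule 4% of all tested genes were higher in KO and 1.95% lower, and among the members 1 of 10 was higher and 0 lower (2 of 10 at an unadjusted p under 0.05, and 24.7% of all genes). By voom on recovered reads 1 of 10 members, again Clock, and 7.1% of all genes were called. With median-ratio scaling the split over all genes turned from 681 higher and 332 lower to 103 higher and 417 lower. The groups did not overlap for 1 of 10 members and for 9.11% of all tested genes (6.96% with KO above, as for Clock, and 2.15% with KO below), so the members' share lay near the background. The median log2 difference of the members was -0.05, beside 0.089 for all tested genes.

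Clock encodes the DNA-binding partner of ARNTL, with histone acetyltransferase activity. It was at 16.3, 14.15, 15.2, 13.9 and 15.2 RPKM (KO 1, 4, 7, 8 and 17, in that order). It was at 12.0, 12.9, 11.6, 11.4 and 13.9 RPKM (WT 2, 9, 19, 86 and 89, in that order). The lowest KO library lay just above the highest WT library (13.94 and 13.88 RPKM). The means were 14.97 ± 1.0 and 12.3 ± 1.0 RPKM (SD, n = 5 each), a log2 difference of 0.27 (SE 0.07, 95% interval 0.12 to 0.42, limma adjusted p = 0.0469). That is a ratio of 1.21. The call ended under 13 of 19 alternatives, at adjusted p up to 0.307 with median-ratio scaling, where the log2 difference was 0.18; it was lost without KO 1, KO 7, KO 8, KO 17, WT 2, WT 9, WT 19 or WT 86. The size moved less: the log2 difference was 0.24 to 0.31 when leaving out 1 library, and 0.18 to 0.31 over all 19 alternatives. The adipocyte and neutrophil marker sums moved with the same groups, and their part in the difference was not tested.

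Arntl, which encodes the other member of that pair, was not called (log2 difference 0.28, SE 0.14, 95% interval -0.04 to 0.60, limma adjusted p = 0.255). It was at 4.98, 3.58, 5.82, 4.47 and 3.90 RPKM (KO 1, 4, 7, 8 and 17). In the WT libraries it was at 4.315, 3.40, 2.95, 4.48 and 3.11 RPKM (WT 2, 9, 19, 86 and 89). The groups overlapped widely, with WT 2 and WT 86 above KO 4 and KO 17.

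Dbp, a clock output that encodes a PAR bZIP factor acting on D-boxes, missed the threshold on the deposited scale. It was at 17.3, 19.0, 14.3, 20.3 and 15.2 RPKM (KO 1, 4, 7, 8 and 17). In WT it was at 22.7, 19.99, 21.2, 20.99 and 20.7 RPKM (WT 2, 9, 19, 86 and 89). Only KO 8 reached the WT range, and the SD was 2.53 RPKM in KO and 0.98 RPKM in WT. The log2 difference was -0.30 (SE 0.09, 95% interval -0.50 to -0.09, limma adjusted p = 0.0838). With median-ratio scaling it passed, at -0.39 (limma adjusted p = 0.0408), and with quantile normalization it was at -0.38 (limma adjusted p = 0.0502). The adipocyte marker sums were also lower in KO, and their part in the difference of Dbp was not tested. In GENCODE M21, 18% of the exon bases of Dbp are shared with Sphk2 on the opposite strand. The same holds for 8.55% of Nr1d1 with Thra, and the sources used here do not say whether reads were counted by strand.

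The deposited transcripts divided the members into 25 rows, of which 23 passed the filter. By limma over 44475 tested transcripts, 0 of the 23 were called (2 at an unadjusted p under 0.05), beside 0.544% of all. The protein-coding Dbp transcript ENSMUST00000080885 was at 19.9 ± 1.4 (KO) and 26.3 ± 2.3 RPKM (WT) (SD, n = 5 each), a log2 difference of -0.39 (SE 0.08, limma adjusted p = 0.0968). Its libraries ran from 17.5 to 21.2 RPKM in KO and from 24.05 to 28.8 RPKM in WT, without the overlap seen at the gene level. The protein-coding Clock transcript ENSMUST00000075159 was at 8.15 ± 0.53 and 7.09 ± 0.56 RPKM (limma adjusted p = 0.519). For Per2, the protein-coding ENSMUST00000069620 was at 8.31 ± 3.28 (KO) and 8.19 ± 3.003 RPKM (WT), and the noncoding ENSMUST00000185298 at 7.91 ± 6.07 and 7.92 ± 2.65 RPKM. For Cry2, ENSMUST00000090559 was the most abundant of 4 rows, at 8.02 ± 2.00 and 9.38 ± 1.26 RPKM. The most abundant row of Nr1d1, ENSMUST00000064941, was at 27.8 ± 10.2 and 33.0 ± 12.0 RPKM.

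**Figure D2:**
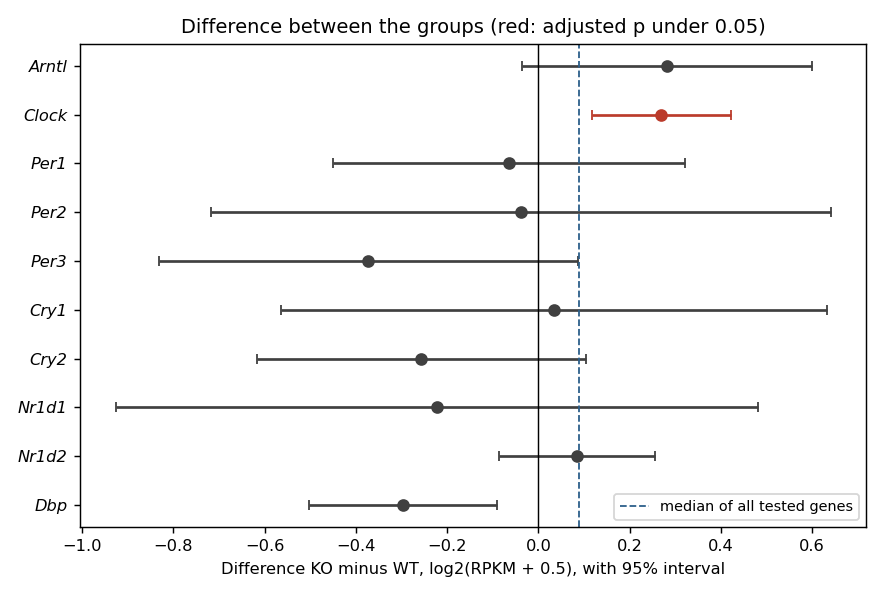
Difference KO minus WT of each clock gene on the log2(RPKM + 0.5) scale (horizontal axis) with limma's 95% interval, and the median of all tested genes as a dashed line at 0.089. Clock (red) is the 1 gene with an adjusted p under 0.05, and the intervals of Per2, Cry1 and Nr1d1 are the widest.

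The negative limb showed no called difference between the groups, and wide differences between libraries of the same group. Per2, which encodes a main repressor of the loop, was at 10.5, 19.6, 9.63, 9.34 and 20.9 RPKM (KO 1, 4, 7, 8 and 17). In WT it was at 10.05, 19.9, 14.7, 8.17 and 18.4 RPKM (WT 2, 9, 19, 86 and 89). Both groups held libraries near 10 RPKM and libraries near 20 RPKM, with none between 10.5 and 14.7 RPKM. The log2 difference between the groups was -0.04, with a 95% interval from -0.72 to 0.64 (limma adjusted p = 0.957). As a ratio of KO over WT that interval ran from 0.608 to 1.56.

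Cry1 encodes the strongest repressor of the CLOCK and ARNTL pair. It was at 3.49, 5.78, 2.98, 2.34 and 5.90 RPKM (KO 1, 4, 7, 8 and 17). In WT it was at 3.78, 4.996, 4.03, 2.09 and 4.595 RPKM (WT 2, 9, 19, 86 and 89). The highest library of all was 2.83 times the lowest, and both groups held high and low libraries. The difference between groups was 0.03 on the log2 scale (95% interval -0.56 to 0.63, limma adjusted p = 0.956).

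Per3, a period gene with a weaker part in the loop, was at 9.77, 16.6, 9.26, 11.8 and 16.9 RPKM (KO 1, 4, 7, 8 and 17). In WT it was at 11.8, 22.1, 16.4, 14.3 and 18.6 RPKM (WT 2, 9, 19, 86 and 89). Its log2 difference was -0.37 (SE 0.21, 95% interval -0.83 to 0.09, limma adjusted p = 0.298). Cry2, the second cryptochrome, ranged from 5.51 to 10.5 RPKM in KO and from 7.71 to 10.9 RPKM in WT (log2 difference -0.26, limma adjusted p = 0.367). Per1, the period gene that responds fastest to hormones and other acute signals, ranged from 18.0 to 29.5 RPKM and from 17.2 to 30.1 RPKM (log2 difference -0.06, limma adjusted p = 0.865).

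Nr1d1, the repressor of Arntl that is also a heme-binding nuclear receptor, was at 38.3, 21.5, 33.7, 44.4 and 18.8 RPKM (KO 1, 4, 7, 8 and 17). In WT it was at 48.4, 18.4, 38.7, 51.1 and 28.7 RPKM (WT 2, 9, 19, 86 and 89). The lowest 4 libraries of Nr1d1 (WT 9, KO 17, KO 4 and WT 89) were the 4 highest of Per2. Between the groups the log2 difference was -0.22 (SE 0.32, 95% interval -0.93 to 0.48, limma adjusted p = 0.719). Its paralog Nr1d2 varied little, from 17.9 to 20.04 RPKM in KO and from 15.8 to 20.8 RPKM in WT (log2 difference 0.08, limma adjusted p = 0.549).

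Per2, Cry1, Per3 and Arntl, picked after their values were seen, divided the libraries alike, across the groups. The other members did not give the same division, and how many of all tested genes do was not counted. The 5 libraries with the most Per2 (WT 19, WT 89, KO 4, WT 9 and KO 17) were also the 5 with the most Cry1, the 5 with the most Per3 and the 5 with the least Arntl. The ratio of Per2 to Nr1d1 within a library, which a scaling factor per library cannot change, ran from 0.160 in WT 86 to 1.11 in KO 17, a 6.96-fold range. The other KO libraries had ratios of 0.275, 0.909, 0.286 and 0.210 (KO 1, 4, 7 and 8). The other WT libraries had 0.208, 1.08, 0.381 and 0.640 (WT 2, 9, 19 and 89). High and low ratios thus occurred under both labels. The ratio of Per2 to Arntl ran from 1.655 in KO 7 to 5.91 in WT 89.

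**Figure D3:**
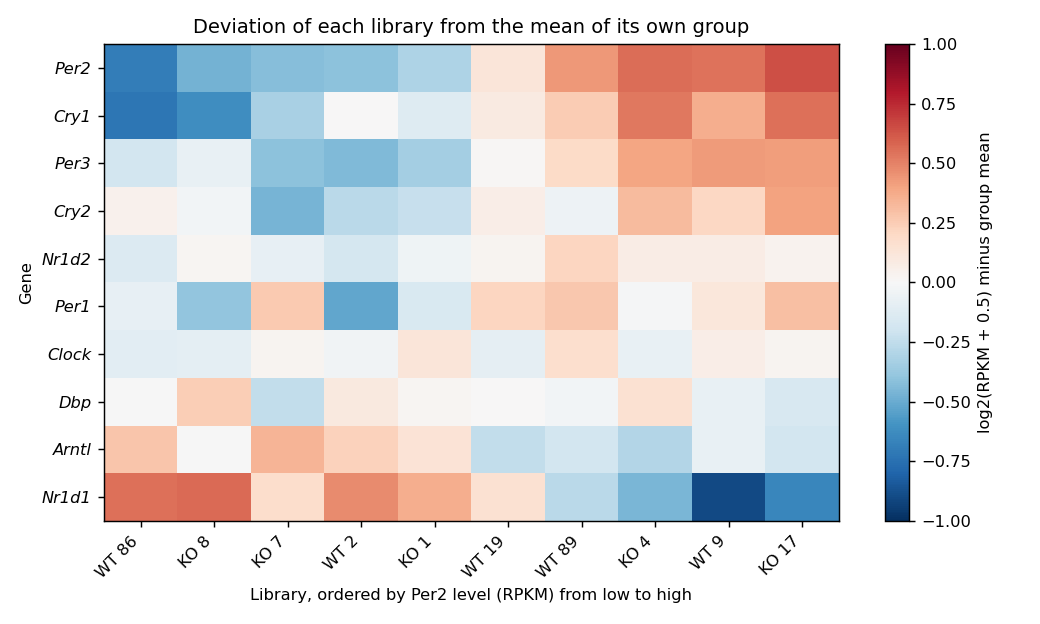
Deviation of each library (columns, ordered by Per2 level) from the mean of its own group for each clock gene (rows), in log2(RPKM + 0.5) units, red above and blue below the mean. Per2, Cry1 and Per3 go broadly from blue to red while Arntl and Nr1d1 go from red to blue, and KO and WT libraries are mixed along the order.

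How far the members varied within a group was set against all tested genes, as a description. The pooled within-group SD of log2(RPKM + 0.5) was 0.175 for the median tested gene. It was 0.565 for Nr1d1 (percentile 91.3 of tested genes), 0.544 for Per2 (90.8), 0.477 for Cry1 (89.1) and 0.365 for Per3 (84.5). Per1 (SD 0.307), Cry2 (0.286) and Arntl (0.246) lay at percentiles 79.8, 77.6 and 71.0. Dbp (0.153), Nr1d2 (0.121) and Clock (0.102) lay at percentiles 40.4, 23.4 and 14.3, and so below the median. In all, 7 of 10 members varied more than the median tested gene.

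**Figure D4:**
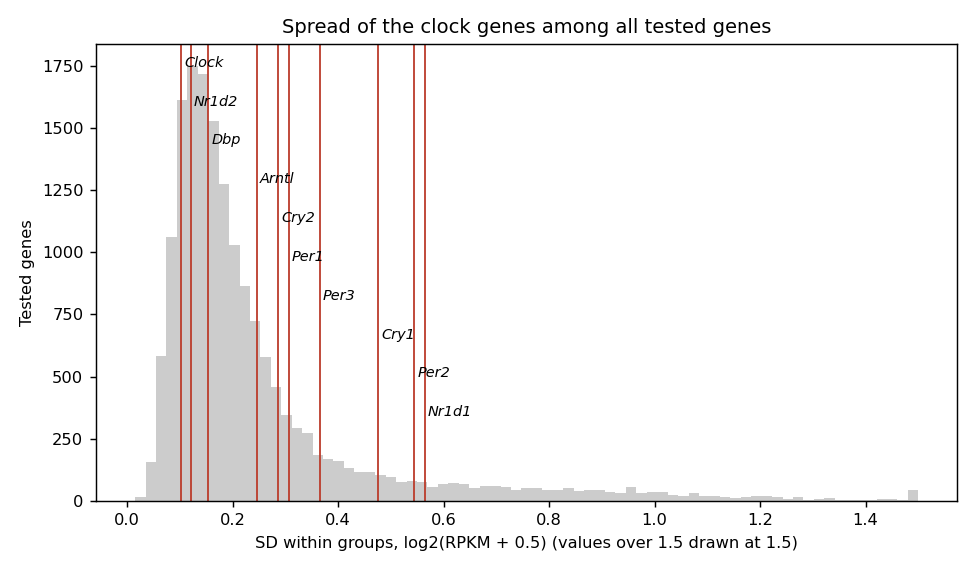
Number of tested genes (vertical axis) by within-group SD on the log2(RPKM + 0.5) scale (horizontal axis), with each clock gene as a red line. Clock, Nr1d2 and Dbp lie below the median of 0.175, and Cry1, Per2 and Nr1d1 lie in the right tail.

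Genes that varied with Arntl inside the groups were sought in a fit with the group and the log2 level of Arntl as terms, over 17037 genes. A slope is the difference in log2(RPKM + 0.5) per log2 unit of Arntl. No gene passed by limma at an adjusted p under 0.05 (0%), members included, while 6 of 9 members and 15.8% of all genes had an unadjusted p under 0.05. Without WT 19, 29 genes passed, and without WT 86, 13, with no member among them. For the repressors the slopes were -1.86 for Per2 (SE 0.40, limma adjusted p = 0.126), -1.23 for Per3 (SE 0.28, limma adjusted p = 0.133), -1.39 for Cry1 (SE 0.45, limma adjusted p = 0.210) and -0.88 for Cry2 (SE 0.26, limma adjusted p = 0.180). Nr1d2 had a slope of -0.40 (SE 0.13, limma adjusted p = 0.202), and Nr1d1 one of 1.44 (SE 0.59, limma adjusted p = 0.288). The slopes of Per1 (-0.49), Dbp (-0.14) and Clock (-0.01) had intervals that included 0. Of the 6 adipocyte markers 0 were called by limma in this fit, and 0 had an unadjusted p under 0.05. Over all marker lists 0 of 37 tested genes were called by limma and 2 had an unadjusted p under 0.05, Msln and Cidea, named after their values were seen. The mesothelial marker Msln had a slope of -1.14 (limma adjusted p = 0.0976), while the other mesothelial markers, Upk3b and Krt19, had slopes of -0.05 and -0.16 (limma adjusted p = 0.930 and 0.872). The brown fat marker Cidea had a slope of 4.10 (limma adjusted p = 0.139), and the part of these genes in the members' slopes was not tested. On Dbp as the covariate 0 genes passed by limma, and 1 of 9 members (Per1, slope -1.50, limma adjusted p = 0.973) and 3.86% of all genes had an unadjusted p under 0.05.

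With Per2 in the place of Arntl, a choice made after the data were seen, 24 genes passed (0.141% of those tested; 0.0998% with a positive and 0.0411% with a negative slope), 2 members among them. Cry1 had a slope of 0.82 on Per2 (SE 0.11, limma adjusted p = 0.0347) and Nr1d1 one of -0.97 (SE 0.13, limma adjusted p = 0.0302). Per3 had a slope of 0.60 (limma adjusted p = 0.0827), Arntl one of -0.38 (limma adjusted p = 0.177) and Dbp one of -0.05 (limma adjusted p = 0.865). On Per2, 6 of 9 members had an unadjusted p under 0.05, beside 12.5% of all genes. Of the 6 adipocyte markers 0 were called by limma for a slope on Per2, and 2 had an unadjusted p under 0.05. So did 1 of 4 endothelial, 1 of 3 mesothelial and the 1 tested brown fat marker, with 0 called. The other marker lists had 0 at either threshold. The part of these markers in the members' slopes was not tested. No library was left out in turn in this fit.

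**Figure D5:**
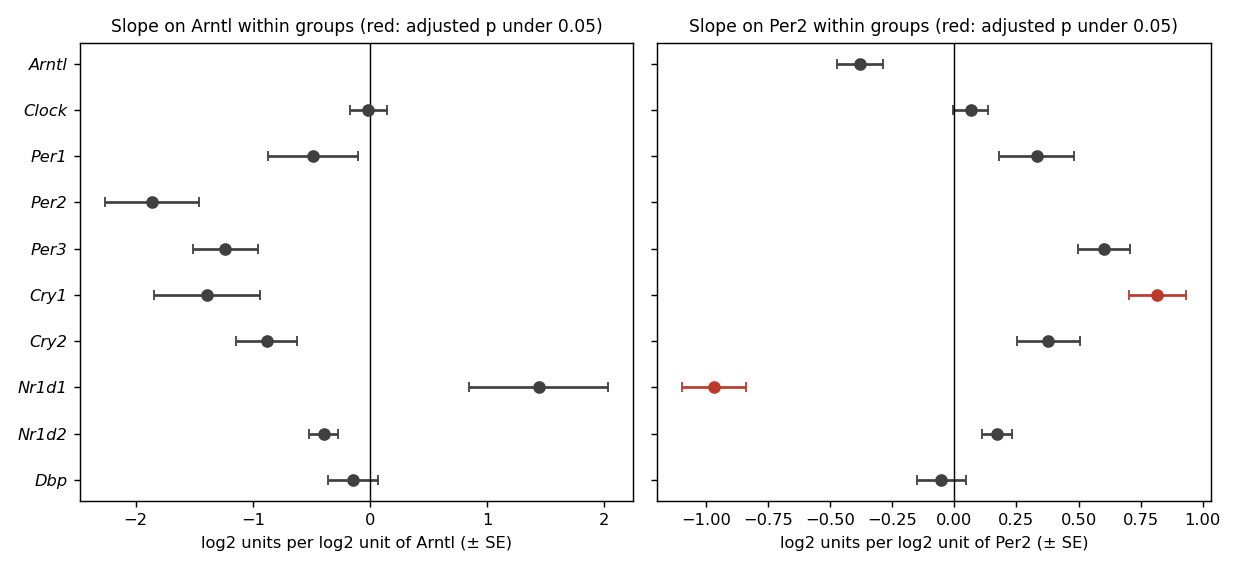
Slope of each clock gene on Arntl (left) and on Per2 (right) within groups, in log2 units per log2 unit, with limma's SE as the bar. On Per2, Cry1 and Nr1d1 (red, adjusted p under 0.05) have slopes of opposite sign, and Clock and Dbp lie within 1 SE of 0 in both panels.

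The genes most like Arntl, by Pearson's r of group-centred log2 values over 10 libraries, were Sema3a (r = 0.962), Ets2 (0.958), Pim1 (0.955), Zfp36 (0.949), Ppm1e (0.948) and Srf (0.943). Those most like Dbp were Dph5 (0.923), Guca1a (0.922), Arfgap3 (0.904), Slpi (0.902), Sec61g (0.895) and Polr2i (0.885). None of these 12 genes is a clock member. These values describe 10 libraries of unequal depth. They were picked as the highest of all tested genes, leaving out predicted, clone-named and pseudogene rows.

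The wider clock machinery had 60 genes in 5 lists, of which 57 were tested. Between the groups 2 were higher and 1 lower (5 called by voom), where 5.95% of all tested genes were called, and their median log2 difference was 0.14. Partners and the stabilising loop had 0 of 9 called (2 at an unadjusted p under 0.05 and 1 by voom, Hlf), with a median of -0.06. Its most abundant genes were Bhlhe40, an E-box repressor, at 43.4 ± 9.5 (KO) and 41.1 ± 2.4 RPKM (WT), and Tef, a PAR bZIP relative of Dbp, at 24.5 ± 6.3 and 29.1 ± 6.5 RPKM. Hlf, a further PAR bZIP gene named after its values were seen, was at 3.89 ± 0.92 and 2.43 ± 0.74 RPKM (log2 difference 0.60, limma adjusted p = 0.0796). Npas2, a paralog of Clock, and the nuclear receptor gene Rorb did not pass the filter.

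Kinases, ligases and other regulators of clock proteins had 1 of 19 tested members higher and 0 lower, with a median log2 difference of 0.14. The call was that of Csnk1a1, a casein kinase 1 gene, at 35.4 ± 1.2 (KO) and 30.7 ± 1.3 RPKM (WT) (log2 difference 0.21, SE 0.05, limma adjusted p = 0.0412). It ended under 14 of 19 alternatives, among them leaving out any single library but WT 9, and the log2 difference was 0.115 with median-ratio scaling and 0.109 with quantile normalization (limma adjusted p = 0.331 and 0.270). Csnk2b and Csnk1d, a kinase that marks PER proteins for degradation, were not called (limma adjusted p = 0.175 and 0.626). Corepressors that act with REV-ERB had 1 of 6 higher, Tbl1xr1, at 20.7 ± 0.9 and 17.0 ± 1.1 RPKM (log2 difference 0.28, limma adjusted p = 0.0230), and a median of 0.12. The call of Tbl1xr1 ended under 7 of 19 alternatives: without KO 1, KO 8, KO 17, WT 86 or both WT 86 and WT 89, and with median-ratio scaling (0.19) or quantile normalization (0.21), at limma adjusted p up to 0.173. The corepressor gene Ncor1 had a log2 difference of 0.02 (limma adjusted p = 0.888).

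Clock-driven output genes had 1 of 16 lower and 0 higher, with a median log2 difference of 0.18. Por, which encodes cytochrome P450 oxidoreductase, was at 68.6 ± 3.2 (KO) and 100.4 ± 6.8 RPKM (WT), with no overlap between the groups (log2 difference -0.55, SE 0.06, limma adjusted p = 0.00116). Por was called under all 19 alternatives. The adipocyte marker sums were also lower in KO, and their part in the difference of Por was not tested. Tspan4 and Herpud1, the next most abundant, were at -0.01 and 0.17 on the log2 scale between the groups. Tspan4 had a slope of -1.51 on Arntl (SE 0.18, limma adjusted p = 0.0577).

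Glucocorticoid-induced genes, listed because Per1 and Per2 also respond to these hormones, had 0 of 10 called (1 at an unadjusted p under 0.05 and 1 by voom, Sgk1), with a median of 0.14. The metallothionein genes Mt1 and Mt2 were most abundant, at 358 and 151 RPKM in KO and 416 and 174 RPKM in WT. Tsc22d3 (GILZ), named after its values were seen, was at 29.0, 52.7, 24.2, 21.7 and 66.4 RPKM (KO 1, 4, 7, 8 and 17). In WT it was at 18.2, 47.0, 24.9, 19.1 and 47.5 RPKM (WT 2, 9, 19, 86 and 89). The 4 libraries highest in Tsc22d3 were the 4 highest in Per2. Of the 10 genes 1, Tsc22d3, was called for a slope on Per2, at 1.21 (limma adjusted p = 0.0302), beside 0.141% of all genes. An unadjusted p under 0.05 was found for 4 of the 10, beside 12.5% of all genes. This share was not particular to the list. It was 8 of 16 for clock-driven output genes and 4 of 9 for partners and the stabilising loop, with 0 called in either. Regulators of clock proteins had 2 of 19 and corepressors 1 of 6, also with 0 called. Per2 was chosen as the covariate after the data were seen, and no library was left out in turn. The slopes of the glucocorticoid list ran from -0.28 for Cdkn1a to 1.33 for Fkbp5 (limma adjusted p = 0.543 and 0.0698), genes named after their values were seen. Dusp1, Mt1, Sgk1 and Mt2 were at -0.02, 0.13, 0.19 and 0.21. Klf9, Errfi1 and Zbtb16 were at 0.43, 0.54 and 0.91 (limma adjusted p = 0.123, 0.401 and 0.171). Why Tsc22d3 varied with Per2 was not tested.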

How the data were processed

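Gene and transcript RPKM were deposited by the authors in one table each. Tools listed in the submitters' processing notes are STAR, featureCounts of Subread, and bcl2fastq. For genome build, annotation, filters and strand setting: not given in the sources used here. Repeated rows held equal values and were used once. Whole reads (tolerance 0.001 reads) were found for 100% of 25122 genes above 0 in at least 3 libraries, and served for depth and for a voom fit.

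Features with at least 0.5 RPKM in at least 5 of 10 libraries were fitted as log2(RPKM + 0.5) with limma 3.58.1 in R 4.3.3 (eBayes, trend and robust, statmod 1.5.0), 2-sided, and called where the p adjusted over all features (Benjamini-Hochberg) was under 0.05. Differences on this scale understate those of low genes. Med19 had an exact permutation test over 252 assignments, whose smallest p is 0.0079. Members and lists were chosen with earlier results of these data known. Named genes were the members, Med19, called list genes or the 2 most abundant where fewer than 2 were called, and the 6 genes most like Arntl and Dbp; 1 gene this rule names is not reported here. Genes outside this rule (markers, Hlf, Sgk1, Tsc22d3, Fkbp5, Cdkn1a, Dusp1, Klf9, Errfi1, Zbtb16 and the genes most like Per2) were named after their values were seen. Alternatives were other pseudocounts, filters, scalings, covariates and left-out libraries.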

Additional observations from a re-analysis of the deposited data

How the results depend on the processing

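On the deposited scale 681 genes were higher and 332 lower in KO, against 103 and 417 with median-ratio scaling and 149 and 392 with quantile normalization. Called in all, of 1013, were 539 with no filter, 520 with median-ratio scaling, 541 with quantile normalization, 211 without WT 86 and WT 89, and 394 to 1003 when leaving out 1 library. The 1 called clock member (Clock) became 0 with no filter, quantile normalization, eBayes without trend and robust, and without WT 86 and WT 89; with median-ratio scaling the 1 member was Dbp. Leaving out 1 library gave 0 to 1 members. Wider clock genes called, 3 at first, numbered 1 with median-ratio scaling, quantile normalization or without WT 86 and WT 89, 5 with voom, and 1 to 4 when leaving out 1 library. Of the 3, Por was called under all 19 alternatives, Tbl1xr1 under 12 and Csnk1a1 under 5. Member transcripts called were 1 with quantile normalization. Genes called for a slope on Arntl, 0 at first, were 3 with a pseudocount of 1, 3 with the filter at 1 RPKM, 2 with median-ratio scaling, 2 with quantile normalization, 53 without WT 86 and WT 89, 29 without WT 19, 13 without WT 86 (0 to 29 over left-out libraries), 0 with Dbp and 24 with Per2 as the covariate, where 2 were members. The cause was not tested.

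The signs of these member values turned, none of them past the threshold on the deposited scale. For the group difference, Cry1 was at -0.0469 and Nr1d2 at -0.0055 with median-ratio scaling, Cry1 at -0.0327 with quantile normalization and -0.12 without WT 86 and WT 89. Leaving out 1 library gave -0.15 to 0.19 for Cry1, -0.21 to 0.10 for Per2 and -0.19 to 0.0349 for Per1. For the slope on Arntl, Clock was at 0.10 with median-ratio scaling, 0.11 with quantile normalization, 0.14 without WT 86 and WT 89 and 0.27 with no group term, and -0.0926 to 0.0777 when leaving out 1 library, where Dbp ran from -0.24 to 0.11. Of 190 member differences under alternatives 14 reversed, and of 171 member slopes 8. No paired analysis was possible because the groups share no library number. Depth limits Cry1 and Arntl most, with as few as 91 and 135 reads.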

Other observations

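The genes most like Per2, looked up after the data were seen, were Ankrd9 (r = 0.974 over 10 libraries, group-centred log2 values), Ermard (0.972), Slco2b1 (0.971), Ttpal (0.970), Pdxk (0.965) and Slc19a2 (0.965). None is a clock member, and none passed the threshold between the groups by limma, with adjusted p from 0.222 for Ttpal to 0.814 for Slco2b1.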
